A study of Mus musculus with 18 samples.

Results

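The genes described here are 9 mouse genes of xenobiotic handling, out of 47729 genes in the count table. They are the cytochrome P450 genes Cyp3a11, Cyp3a13, Cyp3a25, Cyp3a44, Cyp2c55 and Cyp2c65, the receptor gene Nr1i2, the carboxylesterase gene Ces1g and the transporter gene Abcb1a. All 9 were found in the table and all 9 passed the filter on low counts that left 16937 genes for testing, Cyp3a11, Cyp3a25 and Cyp3a44 through their recovery libraries alone. They were chosen from measured values of these same libraries, in particular from rises in colon recovering from colitis, so their recovery against control is a description and carries no test. RNA-seq was run on colon of WT mice and of mice lacking Cldn2, the gene of the pore-forming tight junction protein claudin-2 (Cldn2KO), all on a C57BL/6 background with littermates as WT. Each genotype gave an untreated control group, a group recovering from colitis induced by dextran sulfate sodium (recovery), and a group given a single 10 mg/kg dose of the colon carcinogen azoxymethane followed by 3 cycles of 2.5% (w/v) dextran sulfate sodium (AOM/DSS). There were 3 libraries in each of the 6 groups. The labels give neither the age of the mice nor the length of recovery, and they do not say that the libraries came from separate animals, so p-values measure only the spread between these libraries. Xist or Hoxb13, given below, set 1 library apart from the others in 4 of the groups. This shows more than 1 tissue sample in each of these groups, but not that all 3 were separate. In Cldn2KO control and WT AOM/DSS, pairs of libraries differed by a chi-square per degree of freedom of 12.7 to 129.2, against at most 1.17 between sequencing lanes of 1 library.

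Nr1i2 encodes the pregnane X receptor, a nuclear receptor that binds drugs, bile acids and microbial metabolites and, paired with the retinoid X receptor, switches on genes for oxidation, conjugation and export of foreign compounds. Cyp3a11 is the classic target in mouse liver. Enzymes of the Cyp3a family oxidise drugs and steroids, and those of the Cyp2c family oxidise drugs and polyunsaturated fatty acids. In the gut, expression of these genes is mainly epithelial.

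The libraries held 17643058 to 27390344 counted reads. Cldn2 had 44.5 to 504 CPM (read counts relative to library size, with sizes scaled by the trimmed mean of M values) in the 9 WT libraries and 0.0555 to 0.557 CPM in the 9 Cldn2KO libraries. Hoxb13, a homeobox gene that marks the distal end of the colon, separated the libraries in a way the labels do not give. It was at 198 to 570.1 CPM in 11 libraries and at 0.502 CPM or less in all 6 recovery libraries and in WT control replicate 2. The study describes distal colon as the source of its recovery RNA. Xist, which marks female tissue, was at 864.6 to 1742 CPM in 6 libraries, namely replicates 2 and 3 of WT recovery, Cldn2KO recovery and Cldn2KO AOM/DSS, and at 1.16 CPM or less in the other 12 libraries. Colonic epithelium was present throughout, with 8 epithelial markers summing to 11900 to 22400 CPM, whereas all 6 pancreatic acinar markers together reached at most 1.42 CPM. In bulk tissue, fewer cells of a type and less RNA per cell cannot be told apart.

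The promoters shown are those of the Cyp3a genes detected mainly in recovery and of the neighbouring Cyp2c genes of chromosome 19. Each is a RefSeq window of 300 bases on GRCm38.p6, from 250 bases before the annotated start to 50 bases after it, printed 5′ to 3′ on the strand of the gene. All 9 members had such a window. That of Abcb1a, at chr5:8566841-8567140, lies upstream of the counted gene model, which starts at chr5:8660077 on the plus strand. Cyp3a11 lies at chr5:145879805-145880104, Cyp3a25 at chr5:146009569-146009868 and Cyp3a44 at chr5:145805825-145806124, all on the minus strand. Cyp2c55 lies at chr19:39006769-39007068 and Cyp2c65 at chr19:39060756-39061055, on the plus strand. Capitals mark every match, on either strand, to AGTTCA or AGGTCA, the hexamers of nuclear receptor sites, to CAAAGTCCA, a core of HNF4 sites, or to TATAAA.
Cyp3a11: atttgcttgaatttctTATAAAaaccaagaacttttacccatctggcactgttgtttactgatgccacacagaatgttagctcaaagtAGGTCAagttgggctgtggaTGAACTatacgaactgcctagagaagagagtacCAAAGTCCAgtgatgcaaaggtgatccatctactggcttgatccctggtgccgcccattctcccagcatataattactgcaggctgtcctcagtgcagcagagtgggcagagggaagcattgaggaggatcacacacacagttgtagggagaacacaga
Cyp3a25: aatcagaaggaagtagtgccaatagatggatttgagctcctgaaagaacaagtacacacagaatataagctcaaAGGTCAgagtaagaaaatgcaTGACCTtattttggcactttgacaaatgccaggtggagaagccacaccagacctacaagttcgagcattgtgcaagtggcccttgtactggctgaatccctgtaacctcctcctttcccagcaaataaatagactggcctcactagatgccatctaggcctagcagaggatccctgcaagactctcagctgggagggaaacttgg
Cyp3a44: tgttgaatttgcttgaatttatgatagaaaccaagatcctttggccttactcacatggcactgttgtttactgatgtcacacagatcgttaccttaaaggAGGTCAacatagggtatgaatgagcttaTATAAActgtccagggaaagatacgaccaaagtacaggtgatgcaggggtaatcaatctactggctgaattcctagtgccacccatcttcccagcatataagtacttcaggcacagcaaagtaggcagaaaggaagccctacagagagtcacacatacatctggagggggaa
Cyp2c55: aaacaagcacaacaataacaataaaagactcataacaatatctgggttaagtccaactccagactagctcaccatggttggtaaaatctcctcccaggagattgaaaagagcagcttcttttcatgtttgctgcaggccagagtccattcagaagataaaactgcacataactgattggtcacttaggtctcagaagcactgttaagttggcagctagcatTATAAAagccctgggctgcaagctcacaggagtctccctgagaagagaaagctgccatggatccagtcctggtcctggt
Cyp2c65: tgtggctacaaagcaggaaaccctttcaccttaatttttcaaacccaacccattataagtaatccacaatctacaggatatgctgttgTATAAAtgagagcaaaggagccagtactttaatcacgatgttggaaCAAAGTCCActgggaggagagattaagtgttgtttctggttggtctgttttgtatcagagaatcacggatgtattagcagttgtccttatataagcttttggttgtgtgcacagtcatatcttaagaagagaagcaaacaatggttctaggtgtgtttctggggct

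The 3 Cyp3a windows each held AGGTCA, at position -162 from the start in Cyp3a11, -176 in Cyp3a25 and -150 in Cyp3a44, and Cyp3a25 held another copy on the opposite strand at -155. The hexamer was in no other member and in 16.3% of all 32851 promoter windows. AGTTCA was in Cyp3a11 and in the Abcb1a window, which is not at the start of the counted gene model, against 14% of all windows. CAAAGTCCA was in Cyp3a11 and Cyp2c65, against 0.475% of all windows. TATAAA was in 5 members, against 13.6% of windows, and in Cyp2c55 it stood at -29. GTTAAT, a core of HNF1 sites, was in none of the members and in 7.1% of windows. Direct repeats of the 2 hexamers spaced by 3 or 4 bases, such as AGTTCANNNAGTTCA or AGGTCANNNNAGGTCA, and everted repeats spaced by 6 bases, such as TGAACTNNNNNNAGTTCA, were in no member and in at most 0.0152% of windows. Distal enhancers lie outside these windows and were not searched.

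Close paralogs limit what the counts of some members can resolve. Of all windows of 50 bases in the main Cyp3a25 transcript, 26.8% were also found in another gene, nearly all in Cyp3a59. The value was 26.4% for Cyp3a44, shared mostly with Cyp3a41a, Cyp3a41b and the pseudogene Cyp3a63-ps, and 14.8% for Cyp3a11. It was 20.6% for Cyp2c65, shared with Cyp2c66, and 18.6% for Abcb1a, shared with Abcb1b. Cyp3a13 and Nr1i2 shared none, Cyp2c55 shared 1.13% and Ces1g 1.67%. Abcb1a exons also overlap the gene model Gm42686 on the opposite strand by 553 bases, and Cyp2c55 exons overlap Gm23800 by 64 bases. How reads that map to several genes were handled, the read length and the use of strand are not given in the sources used here.

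**Figure D1:**
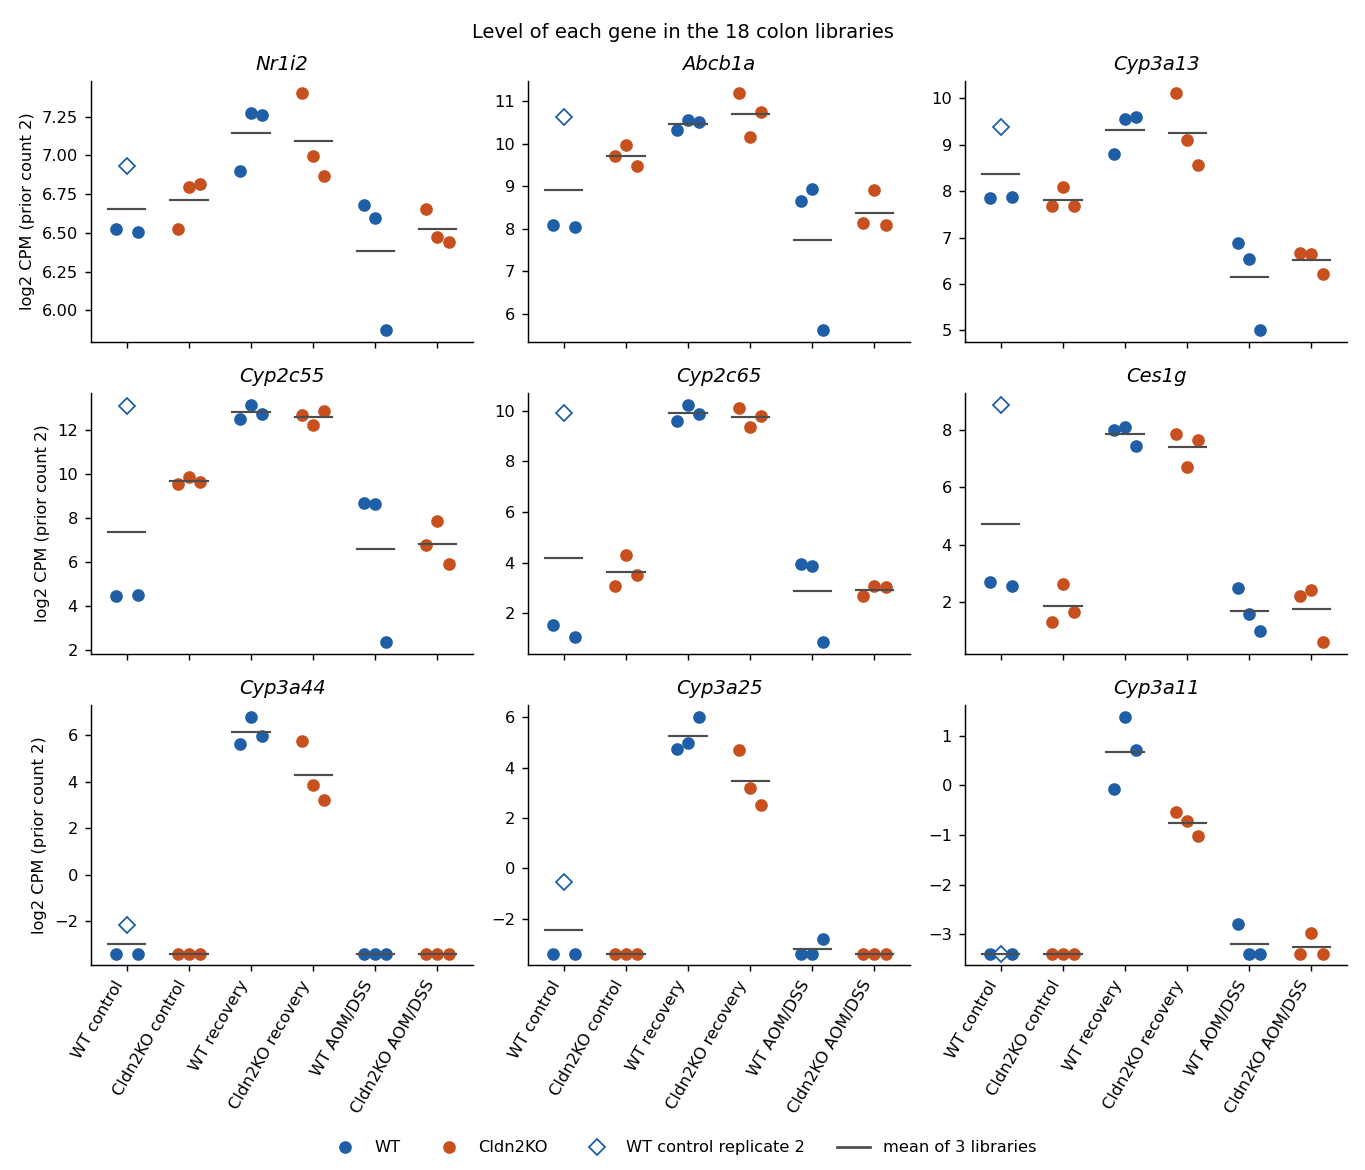
Level of each of the 9 genes in all 18 libraries, as log2 CPM with a prior count of 2, with WT in blue, Cldn2KO in orange, WT control replicate 2 as an open diamond and a line at the mean of the 3 libraries of a group. WT control replicate 2 lies with the recovery libraries for Cyp2c55, Cyp2c65, Ces1g, Abcb1a and Cyp3a13, and with the other controls for Cyp3a11.

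Nr1i2, the receptor gene, ran from 58.5 to 169.1 CPM over the 18 libraries. It stood at 92.1, 121.8 and 90.9 CPM in WT control replicates 1, 2 and 3 and at 92.2, 111.1 and 112.3 CPM in Cldn2KO control. It stood at 119.4, 154.4 and 153.3 CPM in the WT recovery libraries and 169.1, 127.7 and 116.9 CPM in those of Cldn2KO. In WT AOM/DSS it was at 102.5, 96.6 and 58.5 CPM, and in Cldn2KO AOM/DSS at 100.5, 88.7 and 86.9 CPM. The recovery libraries were the highest, above every control in Cldn2KO and overlapping the WT controls through WT control replicate 2. By group mean the order ran from WT recovery and Cldn2KO recovery, which overlapped, down to the controls and the AOM/DSS groups, which overlapped among neighbours.

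Abcb1a encodes the P-glycoprotein pump, which exports drugs from the apical face of enterocytes. It was at 271.7, 1580 and 262.9 CPM in WT control and at 833.1, 1001 and 708.7 CPM in Cldn2KO control. Recovery libraries held 1286, 1522 and 1472 CPM in WT and 2353, 1138 and 1736 CPM in Cldn2KO. AOM/DSS libraries held 401.9, 491.5 and 48.9 CPM in WT and 282.1, 481.3 and 271.4 CPM in Cldn2KO. Replicate 2 of WT control was among the recovery libraries, the other WT controls were below every Cldn2KO control, and WT AOM/DSS replicate 3 was the lowest of all libraries. Its paralog Abcb1b was at 0.823 to 2.89 CPM in all 18 libraries.

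Cyp3a13 was the member of its family with reads in every library. It was at 232.4, 665.1 and 235.8 CPM in WT control and at 204.3, 271.5 and 204.5 CPM in Cldn2KO control. Recovery libraries held 447.4, 753.9 and 774.4 CPM in WT and 1111, 546.9 and 380.3 CPM in Cldn2KO. AOM/DSS libraries lay lowest, at 118.2, 92.5 and 32.2 CPM in WT and at 101.1, 100 and 74.6 CPM in Cldn2KO. No AOM/DSS library reached any control library, and WT control replicate 2 again fell among the recovery libraries.

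Cyp2c55, a P450 of large intestine that oxidises arachidonic and linoleic acid, was the most abundant member in the recovery groups. Per kilobase of exon its mean in WT recovery was 3632 ± 830 CPM (SD, n = 3), against 502.9 ± 110.9 for Cyp2c65, 260.3 ± 22.6 for Abcb1a, 222.8 ± 62.0 for Cyp3a13, 37.9 ± 16.7 for Cyp3a44 and 19.7 ± 10.1 for Cyp3a25. In Cldn2KO AOM/DSS it was 67.0 ± 44.1, beside 62.9 ± 21.6 for Abcb1a. In CPM, Cyp2c55 was at 22.3, 8594 and 22.6 in WT control and at 760.3, 920.2 and 803.1 in Cldn2KO control. The 3 Cldn2KO controls lay close together and between the extremes of the WT controls. Recovery libraries held 5814, 9059 and 6862 CPM in WT and 6669, 4878 and 7475 CPM in Cldn2KO. AOM/DSS libraries held 411, 405.6 and 5.16 CPM in WT and 109.1, 231.3 and 60.5 CPM in Cldn2KO. Every recovery library was above every other library except WT control replicate 2.

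Cyp2c65, which lies next to Cyp2c55, followed the same order at lower levels. It was at 2.83, 944.7 and 2.03 CPM in WT control and at 8.28, 19.5 and 11.3 CPM in Cldn2KO control. Recovery libraries held 774, 1198 and 936.9 CPM in WT and 1095, 653.3 and 876.1 CPM in Cldn2KO. AOM/DSS libraries held 15.2, 14.6 and 1.75 CPM in WT and 6.28, 8.28 and 8.21 CPM in Cldn2KO. The recovery libraries and WT control replicate 2 were all at 653.3 CPM or more, and the other 11 libraries at 19.5 CPM or less. The paralog Cyp2c66 split the libraries in the same way, with 182 to 307 reads in each recovery library, 397 reads in WT control replicate 2 and at most 2 reads elsewhere.

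Ces1g, a carboxylesterase of liver and intestine, showed the same split. It was at 6.45, 468.5 and 5.76 CPM in WT control and at 2.37, 6.16 and 3.07 CPM in Cldn2KO control. Recovery libraries held 251.8, 272 and 174.7 CPM in WT and 229.2, 104.3 and 199.3 CPM in Cldn2KO. AOM/DSS libraries held 5.52, 2.93 and 1.89 CPM in WT and 4.56, 5.29 and 1.44 CPM in Cldn2KO. Here WT control replicate 2 was above every recovery library.

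The remaining Cyp3a genes differed from this pattern, because WT control replicate 2 had few or none of their reads. Cyp3a44, known for female-biased expression in liver, was at 49.2, 111.5 and 62.6 CPM in the WT recovery libraries and 53.8, 14.4 and 9.05 CPM in those of Cldn2KO. It had 2 reads in WT control replicate 2 and none in the other 11 libraries. Cyp3a25 was at 26.9, 31.3 and 65.2 CPM in the WT recovery libraries and 25.8, 9.09 and 5.61 CPM in those of Cldn2KO, with 9 reads in WT control replicate 2, 1 read in WT AOM/DSS replicate 3 and none elsewhere. Cyp3a11 had 21, 35 and 26 reads in WT recovery, 11, 11 and 8 reads in Cldn2KO recovery, 1 read in each of 2 AOM/DSS libraries and none in the 6 controls. All 6 recovery libraries therefore stood above all 12 others for each of the 3 genes. Cyp3a11 had few reads, and the part that reads of its paralogs had in them was not tested. Replicate 1, the recovery library without Xist in each genotype, was the lowest of its group for all 3 genes in WT and the highest for all 3 in Cldn2KO. The part of sex in these values was not tested.

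Other annotated Cyp3a genes were near the limit of detection. Cyp3a16 had 13 to 15 reads in each WT recovery library, 3 to 19 reads in each Cldn2KO recovery library, 2 reads in each of 2 WT AOM/DSS libraries and none elsewhere. Cyp3a59, the paralog closest to Cyp3a25, had 3 to 12 reads in each recovery library and 2 reads in WT control replicate 2. These counts were at most 1.02 CPM.

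Markers of position and cell type differed between the same libraries. Car1, a carbonic anhydrase of colonocytes, was at 8171 to 43580 CPM in recovery, 45440 CPM in WT control replicate 2, 572.9 to 4318 CPM in the other controls and 102 to 1078 CPM in AOM/DSS. The other colonocyte and goblet cell markers listed did not share this split. Slc26a3 and Aqp8 were at 307.3 to 926 CPM and 29.2 to 420.7 CPM in recovery, below all 6 controls, and Muc2 ran from 4003 to 11680 CPM in recovery, with 1384 CPM for WT control replicate 2. The 4 markers together summed to 14740 to 55950 CPM in recovery, 51260 CPM in WT control replicate 2, 4567 to 10770 CPM in the other controls and 1093 to 3890 CPM in AOM/DSS, with Car1 the largest share in recovery. The 6 leukocyte markers summed to 31.3 to 78.9 CPM in recovery, 62.7 to 320 CPM in controls and 82.6 to 231.5 CPM in AOM/DSS. Sucrase-isomaltase (Sis), an enterocyte disaccharidase, was at 24.6 to 182.5 CPM in the recovery libraries, 1.90 CPM in WT control replicate 2 and at most 0.357 CPM elsewhere. The 9 small intestinal enterocyte markers summed to 299 to 756 CPM in recovery, 259 to 354 CPM in controls and 89.3 to 221 CPM in AOM/DSS, while lactase (Lct) stayed at 0.333 CPM or less. Smooth muscle markers, 6 in number, summed to 667 to 2020 CPM in recovery, 3530 to 9600 CPM in controls and 524 to 5480 CPM in AOM/DSS. The 8 hepatocyte markers summed to 57.5 CPM or less in every group, Fgb had at most 1 read per library, and albumin (Alb) was at 0.394 CPM or less in recovery. The part of these markers in the member levels was not tested.

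In untreated colon, the comparison of Cldn2KO with WT called none of the 9 members at an adjusted p of 0.05 by edgeR's quasi-likelihood test, against 1.17% of all genes tested. At an unadjusted p of 0.05, 2 members passed, against 13.1% of all genes, and DESeq2 called 2, Ces1g and Cyp2c65, beside 3.99% of all genes. None of the 9 members had groups that did not overlap, against 22.3% of all genes tested. Cyp3a11, Cyp3a25 and Cyp3a44 had no reads in Cldn2KO control and 0, 9 and 2 reads in WT control. They could hardly be called or set apart here, so these counts rest on the remaining members. Cyp2c55 had a log2 fold change of -1.80 (SE 1.57, adjusted p = 0.701 by edgeR), which turned to 5.18 (adjusted p = 0.054) without WT control replicate 2. Adjusted p over all alternatives ran from 0.0513 to 0.859. Cyp2c65 had a log2 fold change of -4.60 (SE 1.58, adjusted p = 0.198 by edgeR, range 0.0234 to 0.975), which turned to 2.38 without that library (adjusted p = 0.124). Ces1g had -5.38 (SE 1.35, edgeR adjusted p = 0.0708, range 0.000277 to 0.811), which shrank to -0.69 without it. Abcb1a had 0.27 (SE 0.70, edgeR adjusted p = 0.922), or 1.64 without it (adjusted p = 0.356). With all 3 libraries the direction of Cyp2c55 and Cyp2c65 in this comparison was thus set by WT control replicate 2.

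**Figure D2:**
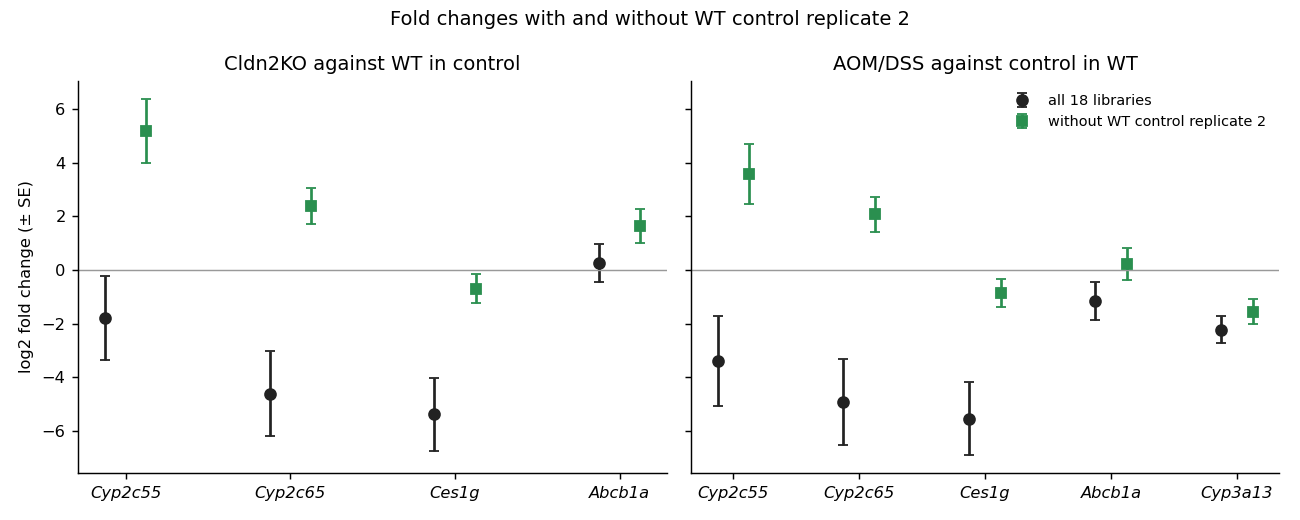
Log2 fold changes with their standard errors for Cldn2KO against WT in control (left) and for AOM/DSS against control in WT (right), fitted with all 18 libraries (black circles) or without WT control replicate 2 (green squares). Without that library the signs of Cyp2c55 and Cyp2c65 turn in both comparisons, and Ces1g moves from -5.38 to -0.69 and from -5.54 to -0.85.

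In recovery, the comparison of Cldn2KO with WT called none of the 9 members by edgeR, against 0.974% of all genes tested. At an unadjusted p of 0.05, 2 members passed, against 19.9% of all genes, and DESeq2 called 0, against 7.93% of all genes. Members were chosen with WT recovery levels known, which this comparison also uses, so the differences of Cyp3a11, Cyp3a25 and Cyp3a44 are given with no p and nothing is read from these counts. Their means were lower in Cldn2KO. Cyp3a11 had a log2 fold change of -1.69 (SE 0.57) and Cyp3a25 of -1.61 (SE 0.75), and the groups of neither overlapped. Without Cldn2KO recovery replicate 1, Cyp3a25 was at -2.48. Cyp3a44 had -1.53 (SE 0.66), with an overlap through Cldn2KO recovery replicate 1, and -2.67 without that library. Groups of 2 of the 9 members did not overlap, against 23.9% of all genes tested. The other 6 members had log2 fold changes from -0.39 to 0.29. Sis was at 95.05, 31.7 and 24.6 CPM in the Cldn2KO libraries and at 29.6, 80.8 and 182.5 CPM in the WT libraries, and its part in the Cyp3a values was not tested.

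**Figure D3:**
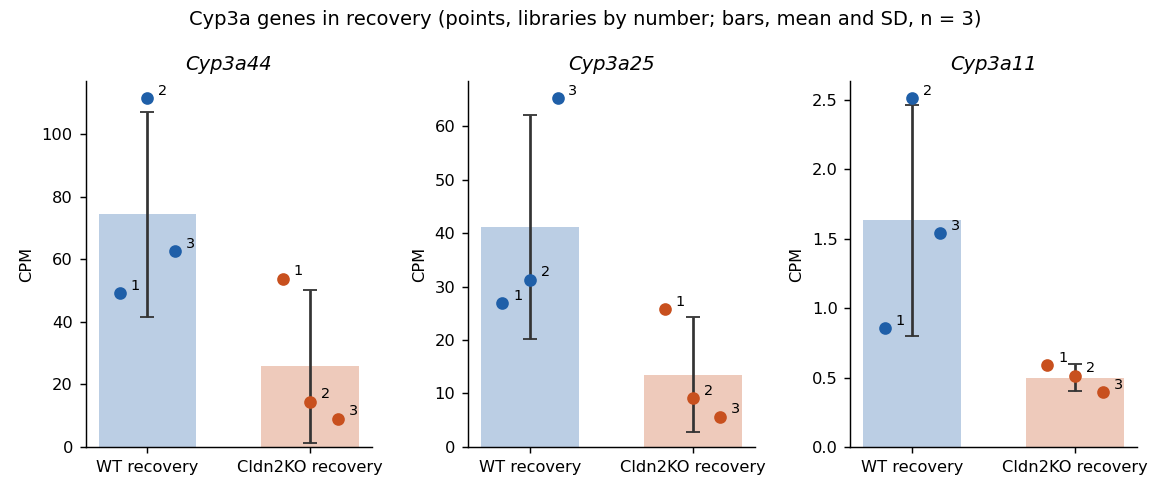
CPM of Cyp3a44, Cyp3a25 and Cyp3a11 in WT recovery and Cldn2KO recovery, with a point and its number for each library, a bar at the mean and an error bar of 1 SD (n = 3). All 3 Cldn2KO libraries lie below the WT libraries for Cyp3a25 and Cyp3a11, while Cldn2KO replicate 1 lies above WT replicate 1 for Cyp3a44.

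In AOM/DSS-treated colon, the comparison of Cldn2KO with WT called none of the 9 members by edgeR, against 0.0059% of all genes tested. None passed an unadjusted p of 0.05, against 5.6% of all genes, and DESeq2 called 0, against 0.0177% of all genes. Cyp3a11, Cyp3a25 and Cyp3a44 had at most 1 read in each group, and the other 6 members had log2 fold changes from -1.03 to 0.18, and the groups of all 9 members overlapped, while those of 11.3% of all genes did not. The interaction of genotype with recovery called 0 members by edgeR and 1 by DESeq2, beside 0.13% of all genes called by edgeR and 5.19% by DESeq2. It rests on the recovery values by which members were chosen, and nothing is read from it. The interaction of genotype with AOM/DSS called 0 by both tools, against 0.0118% of all genes called by edgeR and 0.508% by DESeq2. Below an unadjusted p of 0.05 was 1 member, against 8.44% of all genes. The lowest edgeR adjusted p of a member in the latter was 0.489.

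In WT mice, AOM/DSS-treated colon had lower Ces1g and Cyp3a13 than control colon. These 2 of the 9 members were called by edgeR, against 10.4% of all genes tested, and DESeq2 called 3, with Cyp2c65 added, against 17.7% of all genes. Cyp3a11, Cyp3a25 and Cyp3a44 had 1, 1 and 0 reads in WT AOM/DSS and 0, 9 and 2 in WT control. A call was hardly possible for these genes. Cyp3a13 had a log2 fold change of -2.22 (SE 0.51, adjusted p = 0.0214 by edgeR, range over alternatives 0.000231 to 0.168), and its groups did not overlap. Ces1g had -5.54 (SE 1.36, edgeR adjusted p = 0.026, range 9.1e-05 to 0.389), and its groups were apart only by 5.52 against 5.76 CPM. Without WT control replicate 2 these became -1.55 (adjusted p = 0.0841) and -0.85 (adjusted p = 0.385), so that neither was called. Neither was called without WT AOM/DSS replicate 3, at -1.83 and -5.23, nor with only these 2 groups in the fit, and Ces1g was not called without WT AOM/DSS replicate 2. That replicate 3 had the lowest epithelial marker sum of all libraries, 11900 CPM. In the same comparison edgeR called lower 3 of 8 intestinal epithelium markers (median log2 fold change -0.49), 2 of 4 colonocyte and goblet cell markers (median -2.32), 2 of 5 small intestinal enterocyte markers (median -2.61) and 2 of 6 smooth muscle markers (median -1.41), with none of these higher. It called higher 2 of 4 hepatocyte markers (median 0.93). The part of these markers in the member calls was not tested.

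The remaining members in WT were not called by edgeR with all libraries. Cyp2c65 had a log2 fold change of -4.91 (SE 1.60, adjusted p = 0.061 by edgeR). DESeq2 called it (-4.92, adjusted p = 0.00466), and so did edgeR without WT control replicate 1 (adjusted p = 0.0339) or replicate 3 (adjusted p = 0.0248). Cyp2c55 had -3.39 (SE 1.67, edgeR adjusted p = 0.187) and Abcb1a had -1.17 (SE 0.71, adjusted p = 0.287). Without WT control replicate 2 the sign of each turned, to 2.08, 3.59 and 0.21. Among WT libraries with Hoxb13, Cyp2c55 ran from 5.16 to 411 CPM in AOM/DSS and stood at 22.3 and 22.6 CPM in the 2 controls left, so that the controls lay within the AOM/DSS range.

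In Cldn2KO mice, whose 3 controls all had Hoxb13, edgeR called none of the 9 members between AOM/DSS and control, against 0.195% of all genes tested. An unadjusted p below 0.05 was found for 1 member, against 15.2% of all genes, and DESeq2 called 0, against 3.58% of all genes. Groups of 4 of the 9 members did not overlap, against 29.1% of all genes tested, and each of the 4 had lower values in AOM/DSS, Cyp2c65 apart only by 8.275 against 8.282 CPM. Cyp3a25 and Cyp3a44 had no reads in either group and Cyp3a11 had 1 read in AOM/DSS, so these genes could not be set apart. Cyp3a13 had a log2 fold change of -1.30 (SE 0.50, adjusted p = 0.233 by edgeR, range over alternatives 0.00744 to 0.623) and Abcb1a of -1.30 (SE 0.71, edgeR adjusted p = 0.403, range 0.0207 to 0.766). Cyp2c55 had -2.63 (SE 1.62, edgeR adjusted p = 0.46, range 0.0261 to 0.802) and Cyp2c65 had -0.78 (SE 1.40, adjusted p = 0.827). With only the 6 libraries of these 2 groups in the fit, Cyp3a13, Cyp2c55 and Abcb1a were called. More listed genes were called in that fit too. Its share of all genes called is not given here, so nothing is read from these calls. AOM/DSS replicates 2 and 3 of Cldn2KO carried Xist and the controls did not.

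Recovery against control is given as a description, because earlier results of this contrast put members on the list. All 9 members had a positive log2 fold change in each genotype, as did 47.5% of all genes tested in WT and 50.3% in Cldn2KO. Of all genes, 22.2% were called in WT and 19.4% in Cldn2KO, in either direction. The groups of 3 members did not overlap in WT and those of 9 did not in Cldn2KO, against 37.7% and 40.3% of all genes. In Cldn2KO, log2 fold changes were 6.07 for Cyp2c65, 5.53 for Ces1g, 2.94 for Cyp2c55, 1.58 for Cyp3a13, 1.04 for Abcb1a and 0.39 for Nr1i2. In WT they were 1.62, 0.54, 1.33, 0.80, 1.02 and 0.49 in the same order, and without WT control replicate 2 they were 8.60, 5.23, 8.31, 1.47, 2.39 and 0.62. For the genes with no reads in Cldn2KO controls, taking a floor of 3 reads over the group, the level was at least 469.4-fold higher for Cyp3a44, 247.7-fold for Cyp3a25 and 9.39-fold for Cyp3a11. In WT, Cyp3a11 was at least 29.1-fold higher by the same floor, and Cyp3a44, with 3821 reads against 2, had a ratio of 2032 (exact 95% interval 562.1 to 16780, covering counting error only). Recovery and the absence of Hoxb13 cannot be told apart in Cldn2KO, and in WT they are separated by 1 library alone.

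That library allowed a direct look at the members. On the log2 CPM scale, WT control replicate 2 was nearer to the WT recovery mean than to the mean of the other WT controls for 6 of the 9 members. This was 66.7%, against 44.9% of all genes tested, and is a description of genes chosen for their recovery values. The 6 were Nr1i2, Abcb1a, Cyp3a13, Cyp2c55, Cyp2c65 and Ces1g. The 3 exceptions were Cyp3a11, Cyp3a25 and Cyp3a44.

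The other genes of xenobiotic handling were taken as 108 listed genes, of which 79 passed the filter on low counts. No listed gene was called by edgeR between genotypes in control, recovery or AOM/DSS, with 17, 9 and 1 below an unadjusted p of 0.05. These were 21.5%, 11.4% and 1.27% of the listed genes, against 13.1%, 19.9% and 5.6% of all genes. DESeq2 called 8, 4 and 1 of them, beside 3.99%, 7.93% and 0.0177% of all genes. Their median log2 fold changes were -0.21, -0.06 and 0.02 in these comparisons. Hnf4a, a nuclear receptor of gut and liver epithelium, was the most abundant of the 12 receptors and partners listed, at 353 to 1000 CPM. Vdr, the vitamin D receptor, was next, at 65.7 to 644 CPM.

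In WT AOM/DSS against control, edgeR called 16 of the 79 listed genes, or 20.3%, all of them lower, against 3.81% of all genes called higher and 6.58% called lower, and the median log2 fold change was -0.72, against 0.01 for all genes tested. Cyp2c66 had no reads in WT AOM/DSS against 397 in WT control (edgeR adjusted p = 0.0371), all 397 from WT control replicate 2, which makes it at least 145.1-fold lower at a floor of 3 reads over the group. Next came Ugt2b5 (log2 fold change -8.49, SE 2.19, adjusted p = 0.0306 by edgeR) and Ugt2b36 (-4.95, SE 1.30, adjusted p = 0.0321), which encode glucuronosyltransferases. They too were at 90.7 and 13.1 CPM in WT control replicate 2 and at 0.236 CPM or less in the other WT controls. Carboxylesterases gave 3 of the 16 and conjugating enzymes 5. The obligate electron donor of P450 enzymes, Por (-1.07, adjusted p = 0.0323), the receptor partner Rxra (-1.05, adjusted p = 0.0395), Hnf4a (-0.82, adjusted p = 0.0246) and Vdr (-1.31, adjusted p = 0.0417) were also lower by edgeR. Without WT control replicate 2, 3 listed genes were called, all lower, against 1.99% of all genes. They were Ces2c, Ces2e and Sult2b1, at -1.45, -0.96 and -1.33. Without WT AOM/DSS replicate 3 none was called. In Cldn2KO AOM/DSS against control only Mgst1, a microsomal glutathione transferase, was called (-1.30, SE 0.25, edgeR adjusted p = 0.0471), and the call was lost with the Xist covariate (-1.34, adjusted p = 0.253) and without any 1 of the 6 libraries other than AOM/DSS replicate 2 (-1.36 to -1.18, adjusted p 0.128 to 0.316), at a like fold change. Below an unadjusted p of 0.05 were 13 listed genes, or 16.5%, against 15.2% of all genes.

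Recovery against control called 21 of the 79 listed genes in WT by edgeR, 11 higher and 10 lower, and 37 in Cldn2KO, 28 higher and 9 lower. These were 26.6% and 46.8% of the listed genes, against 22.2% and 19.4% of all genes. Of all genes, 10% were called higher and 12.2% lower in WT, and 9.43% higher and 10% lower in Cldn2KO. With the Hoxb13 covariate they fell to 7 and 1, with the Xist covariate to 12 and 22, and leaving out a library gave 12 to 43 in WT, the highest without WT control replicate 2, and 20 to 29 in Cldn2KO. In Cldn2KO the Hoxb13 covariate and recovery coincide. That fit separates them through WT control replicate 2 alone, so nothing is read from the fall to 7 and 1. Of the listed genes, 7 passed the filter on low counts only with the recovery libraries, so that a difference from control was set by the filter. They gave 1 of the higher calls in WT and 6 in Cldn2KO, and 10 and 22 higher calls were left without them. The median log2 fold change of the listed genes was 0.39 in WT and 0.52 in Cldn2KO, against -0.04 and 0.00 for all genes tested. The 3 largest positive values in Cldn2KO belonged to these 7 genes and are given with no p. Ugt2b5 had a log2 fold change of 8.67. Cyp2c66 had 798 reads against 3, a ratio of 249.9 (exact 95% interval 85.2 to 1214), and Slc47a1, a cation exporter, had 497 reads against 2, a ratio of 233.5 (interval 64.3 to 1933). In WT, Cyp3a16, also of the 7, had 42 reads against 0 and was at least 14.9-fold higher. Gsta1 (1.86, SE 0.34, edgeR adjusted p = 0.00235) and Gsta2 (1.68, SE 0.48, edgeR adjusted p = 0.0218), glutathione transferases, rose in WT, although Gsta2 was not called without WT control replicate 2 (1.44, edgeR adjusted p = 0.06). Genes of the same families also fell, at a share near that of all genes called lower. In Cldn2KO the largest falls were in Ces1c, with 0 reads against 51 and so at least 18.1-fold lower (edgeR adjusted p = 0.00259), Ces1b (-4.58, adjusted p = 0.00367) and Cyp2c23 (-3.84, adjusted p = 0.00701). In WT they were in Ces2f (-5.63, edgeR adjusted p = 0.00682), Cyp2c23 (-3.64, adjusted p = 0.011) and Ces1b, with 3 reads against 74, a ratio of 0.0431 (exact 95% interval 0.00869 to 0.131, adjusted p = 0.00788).

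**Figure D4:**
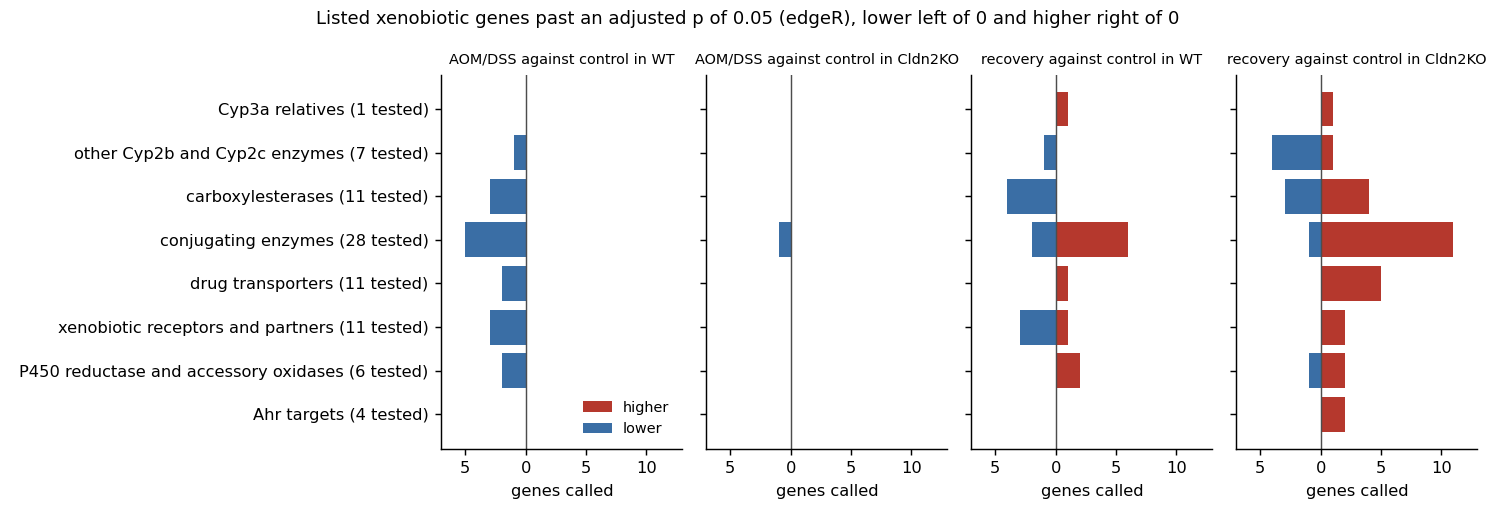
Number of listed xenobiotic genes past an adjusted p of 0.05 by edgeR in each of 8 gene lists, higher (red, right of 0) or lower (blue, left of 0), for AOM/DSS and recovery against control in each genotype. The 16 calls of WT AOM/DSS are all lower, Cldn2KO AOM/DSS has 1 call, and recovery has 21 calls in WT and 37 in Cldn2KO, in both directions.

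By list, conjugating enzymes gave 11 higher and 1 lower of 28 tested in Cldn2KO recovery, 3 of the 11 being genes that passed the filter only with the recovery libraries, and 6 higher and 2 lower in WT. Ugt1a1, the bilirubin glucuronosyltransferase, was at 5.19 (SE 0.85, edgeR adjusted p = 0.00107) in Cldn2KO, although Ugt1a genes share exons and their counts are uncertain. Drug transporters gave 5 higher of 11 in Cldn2KO, 4 of them without Slc47a1, and 1 higher in WT. Abcc3 (1.17, edgeR adjusted p = 0.0228) and Abcg2 (1.19, adjusted p = 0.0439) were among the 5. Other Cyp2b and Cyp2c enzymes gave 4 lower and 1 higher of 7 in Cldn2KO, the higher one being Cyp2c66, set by the filter, and 1 lower in WT. Cyp2c68, the most abundant of them, was at 134 to 172.1 CPM in Cldn2KO control and at 3.69 to 21.5 CPM in Cldn2KO recovery, opposite to Cyp2c55 and Cyp2c65. Carboxylesterases gave 4 higher and 3 lower of 11 in Cldn2KO and 4 lower in WT, with Ces2e (128 to 1220 CPM) and Ces2a (29.5 to 1120 CPM) the most abundant over the 18 libraries. Ugt2b34 and Sult1d1 were the most abundant conjugating enzymes, at 213 to 1470 CPM and 63.7 to 1720 CPM. Accessory oxidases gave 2 higher in each genotype and 1 lower in Cldn2KO, where Aldh1a1, a retinal dehydrogenase, had 4.27 (SE 1.09, edgeR adjusted p = 0.0141). Cyb5a, the cytochrome b5 that donates electrons to P450 enzymes, was higher in WT (0.95, edgeR adjusted p = 0.00537). The Ahr targets Nqo1 (2.29, edgeR adjusted p = 0.00392) and Tiparp (0.62, adjusted p = 0.0319) were higher in Cldn2KO. Nr1h4, which encodes the bile acid receptor FXR, was higher in both genotypes, at 1.54 in WT (SE 0.27, edgeR adjusted p = 0.00176) and 2.02 in Cldn2KO (SE 0.27, adjusted p = 0.000362). Nr1i3, the CAR receptor gene, was lower in WT (-2.69, edgeR adjusted p = 0.0256), at 1.73 CPM or less in every library.

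WT control replicate 2 moved these counts too. Without it 43 of 80 listed genes were called between recovery and control in WT, 33 higher and 10 lower, against 25.1% of all genes tested. The 33 include Ugt2b5, Ugt2b36, Cyp3a16, Slc47a1 and Cyp2c66. In the main fit these passed the filter on low counts only with the recovery libraries, so their higher calls were set by the filter. That library was nearer to the WT recovery mean for 50 of the 79 listed genes, or 63.3%, against 44.9% of all genes.

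The genes whose log2 CPM followed Nr1i2 most closely over the 18 libraries were Cmbl (Pearson r = 0.961), Hpgd (0.946), Pbld2 (0.938), Ccdc107 (0.936) and Ces1e (0.935). Those most like Cyp3a11 were Cyp3a44 (0.976), 1810010D01Rik (0.97), Slc13a1 (0.962), Prdx3 (0.962) and C1galt1c1 (0.959). The 18 points share treatment groups and the Hoxb13 split, and the ranking is a description. Cyp3a11, Cyp3a25 and Cyp3a44 had few or no reads outside recovery, so their r values rest on recovery against that floor. Cyp3a11 and Cyp3a44 also share sequence. Among members, r was highest for Cyp3a25 with Cyp3a44 (0.99), Cyp3a11 with Cyp3a44 (0.976), Cyp3a11 with Cyp3a25 (0.957), Cyp2c55 with Abcb1a (0.955) and Cyp2c65 with Ces1g (0.949). It was 0.928 for Cyp2c55 with Cyp2c65 and lowest for Cyp3a11 with Abcb1a, at 0.622.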

How the data were processed

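RNA-seq of colon was measured in 18 libraries, 3 in each of 6 groups of genotype by treatment, grouped by the labels. The deposited values are raw read counts per gene, made by the authors with featureCounts of the Subread package. The submitters' processing notes name HISAT2 and the build GRCm38, whereas the study's methods name TopHat2. Versions, annotation release, strand setting and handling of multi-mapped reads are not given in the sources used here. Counts of the 2 lanes of each library were summed. Lanes differed by a chi-square per degree of freedom of 1.08 to 1.17, and the closest pair of replicates by 10.98. Gene IDs were matched to GENCODE M21 symbols, for 47310 of 47729 genes.

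Counts were tested in R 4.3.3 with edgeR 4.0.16 (quasi-likelihood test, TMM scaling, filterByExpr, all 6 groups in 1 fit, Benjamini-Hochberg adjustment, threshold 0.05). Log2 CPM used a prior count of 2. The script was tested on simulated data. Floors of 3 reads and 95% intervals cover counting error only. The genes named were the 9 members, the other Cyp3a genes, the 2 genes of each list with the highest mean CPM, up to 3 called list genes in each direction per comparison, the 5 genes most like Nr1i2 and Cyp3a11, and Cldn2, Hoxb13 and Xist. Other list genes and the markers named were chosen after their values were seen. The members and lists were chosen with earlier results of these data known. Alternatives were RLE scaling, 2 other filters, DESeq2 1.42.0, only the groups compared in the fit, a covariate for Xist or for Hoxb13 above 10 CPM, a replicate block in controls, and leaving out each library in turn.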

Additional observations from a re-analysis of the deposited data

How the results depend on the processing

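The control titles carry replicate numbers, and same-numbered WT and Cldn2KO controls deviated together with r of only 0.157, 0.00234 and 0.0794. WT control replicate 2 differed from the other WT controls by a chi-square per degree of freedom of 292.3 and 232.1, against 10.98 between those. The r values therefore cannot decide whether the numbers mark a pairing. With the replicate block, 2 listed genes were called between genotypes in control, and Cyp2c55 and Cyp2c65 turned to 3.55 (edgeR adjusted p = 0.544) and 0.20 (adjusted p = 0.975). With the Hoxb13 covariate, which among controls rests on WT control replicate 2 alone, Cyp2c55 and Cyp2c65 were at 5.20 and 2.41 between genotypes in control. In WT AOM/DSS against control Cyp2c55, Cyp2c65 and Abcb1a were then at 3.61, 2.10 and 0.23. In recovery against control the covariate gave -0.014 for Cyp3a13, -0.25 for Cyp2c55, -1.01 for Ces1g and -0.15 for Abcb1a in WT, and -5.64 for Cyp2c55, -2.52 for Cyp2c65, -0.022 for Nr1i2, -0.73 for Ces1g and -1.52 for Abcb1a in Cldn2KO. In Cldn2KO the covariate coincides with recovery, so these values too rest on WT control replicate 2. Leaving out each library in turn, the values between genotypes in control ran from -2.38 to 5.18 for Cyp2c55, -5.18 to 2.38 for Cyp2c65 and -0.13 to 1.64 for Abcb1a. Those in WT AOM/DSS ran from -3.97 to 3.59 for Cyp2c55, -5.49 to 2.08 for Cyp2c65 and -1.62 to 0.21 for Abcb1a, and that of Ces1g in WT recovery from -0.023 to 5.23. The highest value of each came without WT control replicate 2. The cause of these turns was not tested. Members called between genotypes in control rose from 0 to 2 by DESeq2 (0 to 1 leaving out a library), and in recovery were 0 to 1 leaving out a library. In WT AOM/DSS the 2 members became 1 with no filter, 0 with only these groups or the covariate for Hoxb13, and 0 to 3 leaving out a library. In Cldn2KO AOM/DSS 0 became 3 with only these groups, a fit whose share of all genes called is not given here. In the interaction with recovery 0 became 1 by DESeq2. Listed genes called between genotypes in control went from 0 to 8 by DESeq2, 1 with only these groups, 1 with the Hoxb13 covariate and 0 to 7 leaving out a library. In recovery they went from 0 to 4 by DESeq2 and 2 with the Hoxb13 covariate, and in AOM/DSS to 1 by DESeq2. In WT AOM/DSS the 16 became 7 with no filter, 27 by DESeq2, 0 with only these groups, 2 with the Hoxb13 covariate and 0 to 22 leaving out a library. In Cldn2KO AOM/DSS the 1 became 3 by DESeq2, 15 with only these groups, 0 with the Xist covariate, 3 with the Hoxb13 covariate and 0 to 1 leaving out a library. In WT recovery the 21 became 12 with only these groups, 12 with the Xist covariate, 7 with the Hoxb13 covariate and 12 to 43 leaving out a library. In Cldn2KO recovery the 37 became 22 with the Xist covariate, 1 with the Hoxb13 covariate and 20 to 29 leaving out a library. Apart from leaving out a library, 97 of 115 tested single-gene values kept their direction and side of the threshold, 74 of 84 described recovery values moved by less than 1 SD, and 74 of 100 counts stayed within 1.5 times. There were 3 libraries a group and the biological coefficient of variation was 0.315 over all genes. Depth limits Cyp3a11, Cyp3a16 and Cyp3a59, among other genes with few reads.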
